A study of Mus musculus with 12 samples.

Results

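The interferon regulatory factor (Irf) genes were examined as a family in myeloid cells sorted from injured mouse muscle, with the question of which members follow the genotype of Ifngr1, the ligand-binding chain of the interferon gamma (IFN-γ) receptor. The 8 members were Irf1, Irf2, Irf3, Irf4, Irf5, Irf7, Irf8 and Irf9, found by symbol among the 24421 symbols of the deposited count table, and all 8 were among the 12981 genes tested. The source was the tibialis anterior, damaged with notexin, a venom phospholipase toxic to muscle, and RNA was taken on day 5. The cells were sorted as propidium iodide negative, CD45 and CD11B positive, and negative for LY6G and SIGLECF, which excludes neutrophils and eosinophils by surface marker. The 4 groups of 3 libraries were Ifngr1 wt/null with isotype antibody, Ifngr1 wt/null with anti-TNFA neutralizing antibody (anti-TNF below), Ifngr1 null/null with isotype antibody and Ifngr1 null/null with anti-TNF. Antibody was injected into the peritoneum every day after injury. All 4 groups therefore carried at least 1 null allele and were injured, and wild-type mice with 2 intact alleles and uninjured muscle were not analysed here. The sources used here give no strain, age or structure of the null allele, and do not say whether each library was a separate mouse, so p-values measure the spread between these libraries, which may be technical in part.

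IRF proteins are transcription factors that share a DNA-binding domain recognising repeats of GAAA, the core of the interferon-stimulated response element (ISRE). IFN-γ signals through its receptor and the JAK kinases to the gamma-activated site (GAS) of target genes, and Irf1 is a classic early target that then activates antigen presentation genes and GTPases. Irf2 binds many of the same sites and restrains Irf1. Irf3, Irf5 and Irf7 are switched on by phosphorylation downstream of nucleic acid sensors and Toll-like receptors. Irf9 is the DNA-binding subunit of ISGF3, the factor of type I interferon signalling. Irf4 and Irf8 act with the myeloid factor PU.1, and Irf8 is needed for monocytes and for some dendritic cells.

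The bases upstream of the annotated starts are shown for the members that hold a GAS-type match, since such a match is the most direct sequence route from the IFN-γ receptor to an Irf gene. Searched on both strands of the RefSeq promoter windows of build GRCm38.p6 (250 bases before to 50 after each start), the letters TTCNNNGAA occurred upstream of 3 of the 8 members, Irf1, Irf2 and Irf8. All 8 members matched the promoter table by symbol, with 11 windows between them. The letters occurred in 3 of these 11 windows and in 8.3% of all 32851 windows. The 250 bases before the start follow, 5′ to 3′ on the gene's strand in lower case, with the GAS matches in capitals, for Irf1 at chr11:53769764-53770013 (plus strand), Irf8 at chr8:120736108-120736357 (plus strand) and Irf2 at chr8:46739495-46739744 (plus strand).
Irf1: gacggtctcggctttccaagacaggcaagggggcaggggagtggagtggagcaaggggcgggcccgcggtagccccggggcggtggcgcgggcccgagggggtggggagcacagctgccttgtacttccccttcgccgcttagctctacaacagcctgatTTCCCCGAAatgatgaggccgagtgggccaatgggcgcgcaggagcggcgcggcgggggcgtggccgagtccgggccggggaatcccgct
Irf8: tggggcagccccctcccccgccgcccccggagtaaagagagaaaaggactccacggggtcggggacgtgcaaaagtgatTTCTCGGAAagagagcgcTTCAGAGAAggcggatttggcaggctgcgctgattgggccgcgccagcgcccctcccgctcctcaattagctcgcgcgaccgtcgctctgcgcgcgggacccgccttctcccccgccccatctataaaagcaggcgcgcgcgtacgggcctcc
Irf2: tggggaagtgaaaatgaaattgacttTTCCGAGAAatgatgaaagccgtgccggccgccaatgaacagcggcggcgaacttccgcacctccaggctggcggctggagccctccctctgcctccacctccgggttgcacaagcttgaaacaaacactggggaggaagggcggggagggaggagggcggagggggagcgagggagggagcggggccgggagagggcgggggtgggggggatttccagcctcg
In GENCODE M21 (GRCm38) the genes themselves lie at chr11:53770014-53778374 (Irf1), chr8:46739732-46847458 (Irf2), chr7:44997648-45002848 (Irf3), chr13:30749226-30766976 (Irf4), chr6:29526625-29541871 (Irf5), chr8:120736358-120756694 (Irf8) and chr14:55603571-55610030 (Irf9) on the plus strand and at chr7:141262706-141266481 (Irf7) on the minus strand. The Irf1 match begins 90 bases before the start, the Irf8 matches 171 and 153 bases before it and the Irf2 match 224 bases before it. The ISRE, searched as GAAA repeated after 2 bases of any kind, occurred in 1 of the 8 members, Irf2, 241 bases before the start. That was 1 of the 11 windows, against 3.44% of all windows. The composite element of PU.1 and IRF, searched as GGAA followed after 2 bases by GAAA, also occurred only in Irf2 among the members, 247 bases before the start and overlapping the ISRE match. That was again 1 of the 11 windows, against 2.72% of all windows. A match is a run of letters and not a measured binding site.

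Library totals ranged from 23.2 to 29.9 M counts (M for mega). Ifngr1 separated the genotypes, at 226 to 250 CPM (counts per M counts, scaled by TMM) in the 6 wt/null libraries and 83.3 to 119 CPM in the 6 null/null libraries. Macrophage markers were present throughout, with 14743 to 19012 CPM summed over 8 genes in the 12 libraries, while the 6 B cell markers summed to 10.0 to 20.3 CPM, nearly all of it Cd79b (9.81 to 19.8 CPM), with Pax5 at no more than 0.116 CPM. The 6 neutrophil markers summed to 43.7 CPM in null/null isotype replicate 1 and to 1.43 to 5.68 CPM in the other 11 libraries. Wt/null anti-TNF replicate 2 and null/null anti-TNF replicate 1 stood apart on the first principal component (54.2 and 45.9, against -20.8 to -3.47 in the other 10 libraries). In those 2 libraries the 10 conventional dendritic cell markers summed to 424 and 364 CPM against 110 to 188 CPM in the others, and 7 of the 10 were higher in both than in any other library. The 6 Ly6C-high monocyte markers summed to 1069 and 1053 CPM against 421 to 714 CPM, a sum that is mostly Ccr2. Of these 6 markers, 4 were higher in both than in any other library. Vcan was at 6.80 and 38.7 CPM against 10.4 to 38.5 CPM, so it was lowest in wt/null anti-TNF replicate 2. The 6 plasmacytoid dendritic cell markers summed to 113 and 109 CPM against 76.6 to 105 CPM. That sum is mostly Tcf4, at 80.9 and 90.1 CPM against 68.8 to 93.2 CPM. Of the 6, 4 were higher in both than in any other library, among them Siglech at 15.9 and 10.4 CPM against 2.74 to 6.71 CPM. Cox6a2 was not, at 4.18 and 2.54 CPM against 3.34 to 5.98 CPM. The 6 osteoclast-like markers summed to 413 and 487 CPM against 896 to 3552 CPM, and 4 of the 6 were lower in both than in any other library. The 8 T and NK cell markers summed to 166 and 121 CPM against 93.0 to 198 CPM, a sum that is mostly Cd4, and 7 of the 8 were higher in both libraries than in any other. Among these 7 was Ifng, the gene of the receptor's ligand, at 2.91 and 1.48 CPM against at most 0.427 CPM. Results below are therefore given with and without these 2 libraries. The part of these cells in any Irf level was not tested, and in sorted bulk samples more cells of a type and more RNA per cell cannot be told apart.

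Compared per length, Irf7, Irf8 and Irf5 were the most abundant members and Irf4 the least. CPM divided by the length in kb of the longest principal transcript averaged 181 ± 101 for Irf7, 143 ± 32.7 for Irf8 and 141 ± 13.4 for Irf5 (mean ± SD over 12 libraries), and the ranges of these 3 overlapped. Irf1 followed at 65.7 ± 33.6, with a range of 36.0 to 168. Irf2 averaged 39.3 ± 6.16 and Irf9 34.0 ± 6.91 on this scale, and their ranges also overlapped. Irf3 averaged 21.6 ± 1.89, below Irf9 in every library, and Irf4 3.85 ± 1.21.

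**Figure D1:**
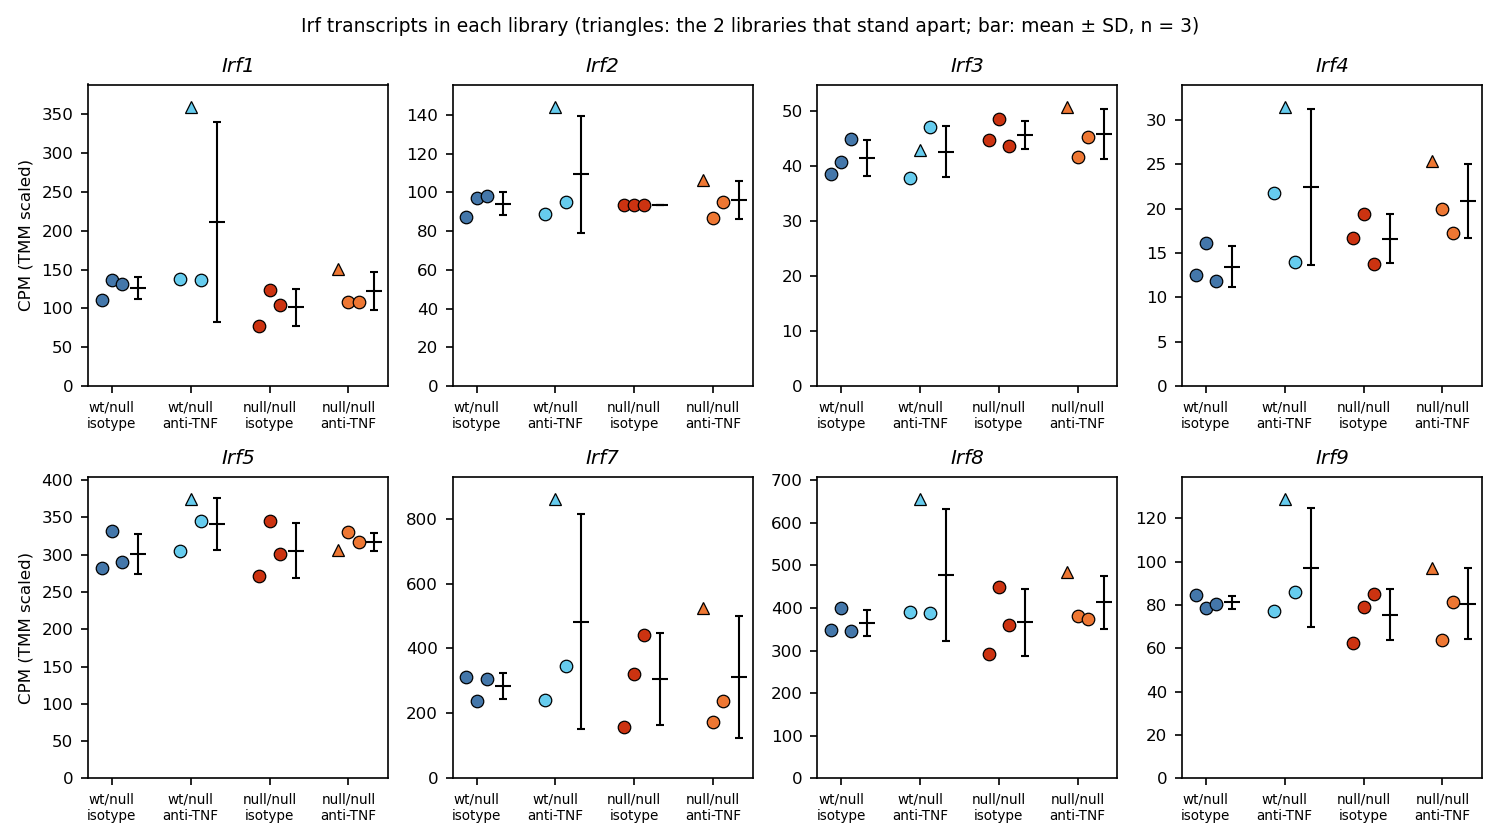
Levels of the 8 Irf genes in CPM (vertical axes, from 0) in the 12 libraries of the 4 groups; bars give the mean and SD of 3 libraries, and triangles mark the 2 libraries that stand apart. Wt/null anti-TNF replicate 2 is the highest library for Irf1 (359 CPM), Irf2, Irf4, Irf5, Irf7, Irf8 and Irf9, but not for Irf3.

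No Irf gene passed the test for Ifngr1 genotype, and Irf1 was the member whose level lay closest to following it. Averaged over antibody, edgeR called 0 of the 8 members at an adjusted p under 0.05, against 0.0077% of all tested genes (1 gene, Ifngr1). At an unadjusted p under 0.05 there were also 0 members in edgeR and 0 in DESeq2, which called 0, and 1 in limma voom (Irf1), which called 0. The background at that unadjusted level in edgeR was 2.46% of all tested genes. The background in limma voom is not given here, so its 1 member has no share beside it. Estimates were lower in null/null for 6 of 8 members, with a median log2 fold change of -0.10, and for 5 of 8 without the 2 libraries that stand apart, with a median of -0.02. Over all tested genes 49.9% of the estimates were lower.

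Irf1, the activator that IFN-γ induces, was at 110, 136 and 132 CPM in wt/null isotype replicates 1 to 3 and at 138, 359 and 136 CPM in wt/null anti-TNF. It was at 76.9, 124 and 104 CPM in null/null isotype and at 151, 108 and 109 CPM in null/null anti-TNF. The null/null libraries were mostly below the wt/null libraries, but the groups overlapped under both antibodies: 124 CPM in null/null isotype exceeded 110 CPM in wt/null isotype, and 151 CPM in null/null anti-TNF exceeded 136 and 138 CPM in wt/null anti-TNF. The mean was 169 ± 94.0 CPM in wt/null and 112 ± 24.5 CPM in null/null (SD, n = 6). The log2 fold change averaged over antibody was -0.55 ± 0.25 (estimate ± SE, 95% interval -1.10 to 0.01), with an unadjusted p of 0.0521 and an adjusted p of 1.00 in edgeR. By unadjusted p Irf1 ranked 331 of the 12981 tested genes. Exact permutation of genotype within antibody gave a difference of -0.49 in mean log2 CPM (two-sided p = 0.06, adjusted p = 1.00 over all tested genes, where 400 arrangements allow 0.005 at the smallest). By permutation 0 members had an unadjusted p under 0.05, against 3.01% of genes. Over both antibodies, 0 members had all 6 null/null libraries below all 6 wt/null libraries (0.123% of genes) and 0 had them all above (0.0847% of genes).

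The size of the Irf1 difference depended on 1 library, and its direction did not. Leaving out wt/null anti-TNF replicate 2 alone brought the estimate from -0.55 to -0.24, while leaving out any other library gave between -0.66 and -0.47. Without both libraries that stand apart Irf1 averaged 130 ± 11.4 CPM in wt/null and 104 ± 17.2 CPM in null/null (SD, n = 5). The log2 fold change was then -0.32 ± 0.12 (95% interval -0.58 to -0.07, unadjusted p = 0.0163, adjusted p = 1.00 in edgeR). Exact permutation on those 10 libraries gave p = 0.0333 for Irf1 (adjusted p = 1.00). In the libraries whose titles start with 46, 1 per group, Irf1 was at 132 and 136 CPM in wt/null and 124 and 109 CPM in null/null. The libraries whose titles start with 40, 2 per group, gave -0.69 ± 0.32.

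Irf2, the antagonist of Irf1, showed little spread outside 1 library. It was at 87.2, 97.0 and 97.9 CPM in wt/null isotype and 88.9, 144 and 95.1 CPM in wt/null anti-TNF. In null/null it was at 93.4, 93.7 and 93.4 CPM under isotype and 106, 86.7 and 94.8 CPM under anti-TNF. The groups overlapped under both antibodies. The genotype estimate was -0.10 ± 0.11 (95% interval -0.33 to 0.14) with all libraries and -0.01 ± 0.06 (95% interval -0.15 to 0.13) without the 2 that stand apart. Set against Irf2 per length within each library, Irf1 stood at 1.48 to 1.64 in wt/null isotype and 1.67 to 2.91 in wt/null anti-TNF. The same ratio was 0.961 to 1.55 in null/null isotype and 1.34 to 1.66 in null/null anti-TNF, a description chosen after the values were seen and given without a test. Both null/null ranges began below the wt/null range of the same antibody, overlapping it under isotype and ending just under it under anti-TNF.

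**Figure D2:**
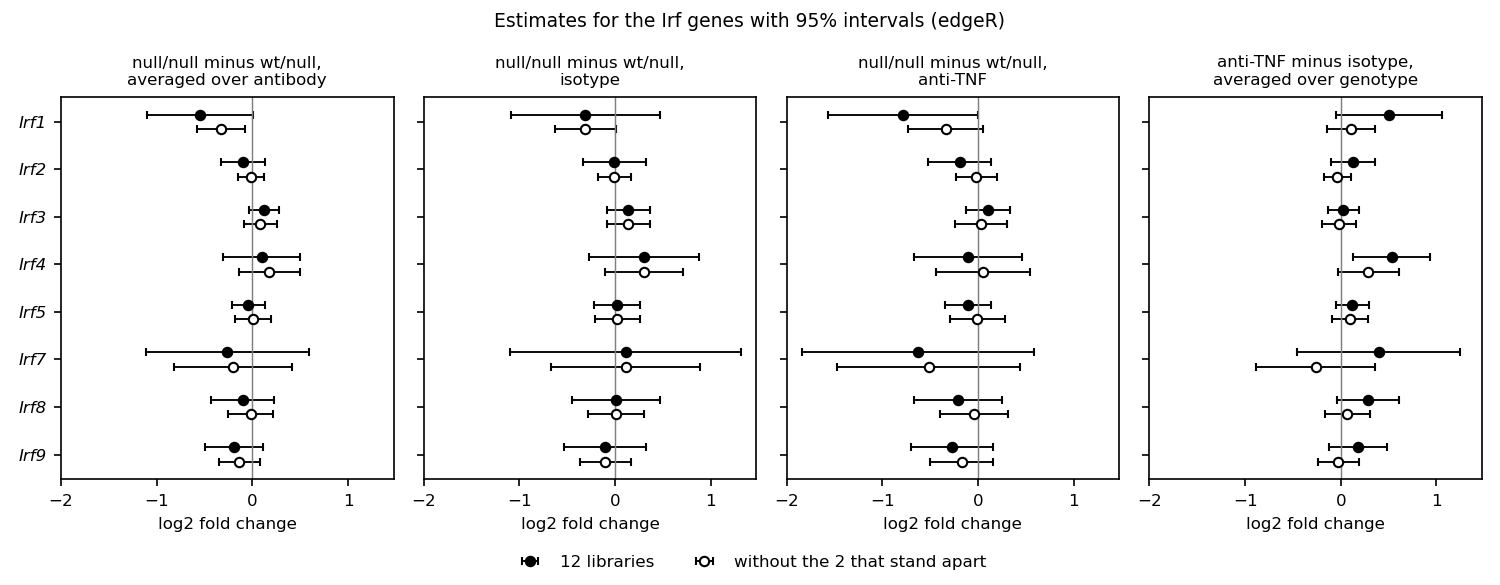
Log2 fold changes (horizontal axes) of the 8 Irf genes in 4 comparisons with 95% intervals from edgeR, for all 12 libraries (filled points) and without the 2 libraries that stand apart (open points). With all libraries the genotype intervals include 0 for every member except that of Irf1 under anti-TNF, which ends at 0.00; averaged over antibody and without the 2 libraries, the Irf1 interval runs from -0.58 to -0.07.

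Among the members activated by phosphorylation, Irf3 and Irf5 were the most even transcripts, and Irf7 varied most between libraries of the same group. Irf3, the constitutive sensor-activated factor, was at 38.6, 40.7 and 44.98 CPM in wt/null isotype and 37.8, 42.9 and 47.2 CPM in wt/null anti-TNF. It was at 44.7, 48.5 and 43.7 CPM in null/null isotype and 50.8, 41.7 and 45.2 CPM in null/null anti-TNF. Irf3 had a higher estimate in null/null, 0.12 ± 0.07 (95% interval -0.04 to 0.28), and the groups overlapped. Its gene body overlaps Bcl2l12 on the opposite strand in GENCODE M21 (GRCm38), and the sources used here do not say whether counting used strand, so reads there cannot be told apart. The same holds for Irf5 and Tnpo3. Irf5, a factor downstream of Toll-like receptors in macrophages, lay between 271 and 375 CPM in all 12 libraries. Its genotype estimate was -0.04 ± 0.08 (95% interval -0.21 to 0.13), and its groups overlapped.

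Irf7, which type I interferon induces and which in turn drives interferon genes, was at 311, 237 and 305 CPM in wt/null isotype and 240, 860 and 347 CPM in wt/null anti-TNF. It was at 159, 320 and 440 CPM in null/null isotype and 524, 174 and 238 CPM in null/null anti-TNF. The null/null isotype libraries alone thus spanned 159 to 440 CPM, on both sides of all wt/null isotype libraries. The genotype estimate of Irf7 was -0.26 ± 0.38, with a 95% interval of -1.12 to 0.59. Its direction turned when wt/null anti-TNF replicate 2 was left out (0.10), and without null/null anti-TNF replicate 1 it was -0.56. Without both it was -0.20 ± 0.27. The gene body of Irf7 overlaps Phrf1 on the opposite strand, with the same limit as for Irf3.

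Irf9, the DNA-binding subunit of ISGF3, was at 84.5, 78.6 and 80.4 CPM in wt/null isotype and 77.2, 129 and 85.7 CPM in wt/null anti-TNF. It was at 62.3, 79.0 and 85.1 CPM in null/null isotype and 96.9, 63.9 and 81.1 CPM in null/null anti-TNF. The lowest 2 libraries were null/null, 1 under each antibody, and the groups overlapped. The genotype estimate was -0.19 ± 0.14 (95% interval -0.49 to 0.11), which was -0.14 ± 0.10 without the 2 libraries that stand apart and -0.06 without wt/null anti-TNF replicate 2 alone. The gene body of Irf9 overlaps Rnf31 on the same strand, so its counts are uncertain where reads could be assigned to either.

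The PU.1 partners Irf8 and Irf4 showed no genotype difference beyond the spread between libraries. Irf8, the factor of monocyte and dendritic cell lineages, was at 349, 401 and 345 CPM in wt/null isotype and 390, 656 and 388 CPM in wt/null anti-TNF. It was at 291, 449 and 360 CPM in null/null isotype and 485, 381 and 375 CPM in null/null anti-TNF. The estimate was -0.10 ± 0.15 (95% interval -0.43 to 0.23) and turned to 0.05 without wt/null anti-TNF replicate 2. Irf4, a factor of IL-4-type macrophage and dendritic cell programs, was at 12.5, 16.1 and 11.8 CPM in wt/null isotype and 21.8, 31.5 and 14.0 CPM in wt/null anti-TNF. It was at 16.7, 19.4 and 13.8 CPM in null/null isotype and 25.4, 20.0 and 17.2 CPM in null/null anti-TNF. Irf4 had a genotype estimate of 0.10 ± 0.18 (95% interval -0.30 to 0.50), which was 0.26 without wt/null anti-TNF replicate 2 and turned to -0.024 without wt/null anti-TNF replicate 3 and to -0.069 with only the libraries titled 40.

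**Figure D3:**
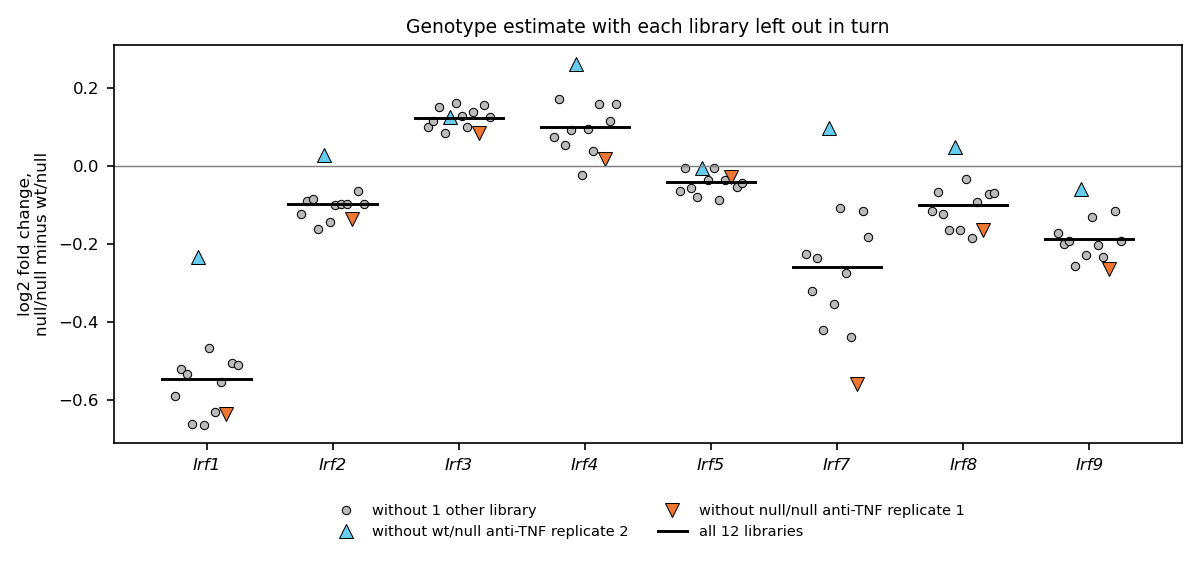
Genotype estimate of each Irf gene, averaged over antibody, as a log2 fold change (vertical axis) with all 12 libraries (line) and with each library left out (points). Leaving out wt/null anti-TNF replicate 2 (upward triangles) moved Irf1 to -0.24 and Irf7 to 0.10, whereas Irf3 stayed between 0.08 and 0.16 whichever library was left out.

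Under isotype antibody the Irf genes had no common direction by genotype. edgeR called 0 of the 8 members against 0.0077% of all genes (Ifngr1), with 0 members at an unadjusted p under 0.05 (1.8% of genes), and DESeq2 and limma voom likewise had 0 by either measure. Estimates were lower in null/null for 3 of 8 members, where 49.3% of all tested genes were lower. Irf1 was at -0.31 ± 0.35 and Irf4 at 0.30 ± 0.26. Without null/null isotype replicate 1, the library with the highest neutrophil marker sum and the lowest Irf1, the Irf1 estimate was -0.15, and the part of those markers was not tested. In 0 of 8 members were all 3 null/null isotype libraries below all 3 wt/null isotype libraries, a pattern found in 3.65% of tested genes, and in 0 members were they all above (4.31% of genes).

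While TNF was neutralized, estimates were lower in null/null for 7 of 8 members, all but Irf3, against 49.3% of all tested genes. edgeR called 0 members (0.0077% of all genes), and 1, Irf1, had an unadjusted p under 0.05 (1.98% of genes). DESeq2 and limma voom called 0 and had 0 at that unadjusted level. Irf1 was at -0.78 ± 0.35 (95% interval -1.57 to 0.00, unadjusted p = 0.0499, adjusted p = 1.00 in edgeR) and Irf7 at -0.63 ± 0.54. Without the 2 libraries that stand apart Irf1 was at -0.34 ± 0.18 and Irf7 at -0.51 ± 0.42, and the median over the 8 members went from -0.20 to -0.03. Without wt/null anti-TNF replicate 2 alone Irf1 was at -0.16 and Irf7 turned to 0.087. With all libraries, in 0 of 8 members were the 3 null/null libraries all below the 3 wt/null libraries (2.58% of genes), and in 0 were they all above (2.57% of genes). Among the remaining 2 against 2, null/null lay below wt/null in 3 of 8 members, Irf1, Irf7 and Irf8, as it did in 11.1% of genes, a count made after the data were seen. For Irf8 that gap was small, with 381 and 375 CPM against 390 and 388 CPM.

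The genotype effect was not shown to differ between antibodies for any Irf gene. The interaction was called for 0 of 8 members and 0% of all genes in edgeR, with 0 members at an unadjusted p under 0.05 against 1.51% of genes, and for 0 members by either measure in DESeq2 and limma voom. All 8 interaction estimates were below 0, from -0.74 ± 0.77 for Irf7 to -0.03 ± 0.15 for Irf3, where 50.6% of all tested genes were below 0. The members share their libraries, so these 8 signs are not independent. Leaving out wt/null anti-TNF replicate 2 turned the interaction of Irf1 from -0.47 to 0.15 and brought that of Irf7 to -0.02.

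Neutralizing TNF, averaged over genotype, went with higher estimates of all 8 members (48.4% of all tested genes were lower), and this rested on the 2 libraries that stand apart, which are both anti-TNF. edgeR called 0 members and 0% of all genes (949 genes, 7.31%, had an unadjusted p under 0.05). DESeq2 and limma voom also called 0 members, but DESeq2 gave Irf4 no adjusted p, so a call was not possible for it there. Irf4 had an unadjusted p under 0.05 in each tool. The shares of all genes at that level in DESeq2 and limma voom are not given here. Irf4 averaged 13.5 ± 2.32 CPM in wt/null isotype and 22.4 ± 8.75 CPM in wt/null anti-TNF, and 16.6 ± 2.78 and 20.9 ± 4.15 CPM in null/null (SD, n = 3). The log2 fold change of Irf4 was 0.53 ± 0.18 (95% interval 0.13 to 0.94, unadjusted p = 0.0138, adjusted p = 0.66 in edgeR), with exact permutation p = 0.035 (two-sided, adjusted p = 0.61), the 1 member under 0.05 by permutation against 7.18% of genes. Without the 2 libraries Irf4 was at 0.29 ± 0.15 (95% interval -0.03 to 0.61), and the members split into 4 with higher and 4 with lower estimates. Irf1 went from 0.51 ± 0.25 to 0.11 ± 0.12 and Irf7 from 0.39 ± 0.38 to -0.26 ± 0.27. In wt/null, Irf1 was the 1 member of 8 with all 3 anti-TNF libraries above all 3 isotype libraries, with the lowest anti-TNF library at 136.2 CPM and the highest isotype library at 136.0 CPM, where 5.71% of genes had this pattern. In null/null 0 of 8 members had it (3.87% of genes).

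Against the median of the other 10 libraries, wt/null anti-TNF replicate 2 held 3.16 times as much Irf7, 3.06 times as much Irf1, 1.92 times as much Irf4 and 1.74 times as much Irf8. Null/null anti-TNF replicate 1, which also stood apart, held 1.92 times as much Irf7 and 1.55 times as much Irf4 but 1.29 times as much Irf1, the largest contrast among members between these libraries. Irf3 was at 0.971 and 1.15 times that median. The 2 libraries had alike levels of Flt3, a dendritic cell receptor (87.3 and 89.3 CPM), but differed in Gbp2, a GTPase gene induced by IFN-γ (525 and 63.9 CPM). Other markers were not all alike. The dendritic cell marker Clec9a was at 16.5 and 6.40 CPM, the monocyte marker Ly6c2 at 77.8 and 30.3 CPM and Ifng at 2.91 and 1.48 CPM. The monocyte marker Ccr2 was at 796 and 839 CPM. The part of cell content in this contrast was not tested. With 1 such library per genotype there is no replicate of this contrast.

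The receptor and signalling genes around the family were mostly even between genotypes. Of the 18 listed genes of the IFN-γ and type I interferon receptors and the JAK-STAT path, 1 was called lower in null/null averaged over antibody (Ifngr1) and 0 higher, with a median log2 fold change of -0.05 against 0.00 for all tested genes. Ifngr2, the second receptor chain, was at 0.05 ± 0.08 under isotype and 0.03 ± 0.08 under anti-TNF, and Jak1 at -0.04 ± 0.10 and 0.08 ± 0.10. Of the 21 measured kinases, adaptors and sensors upstream of Irf3, Irf5 and Irf7, 0 were called by edgeR, DESeq2 or limma voom, with 0 at an unadjusted p under 0.05 in edgeR for either antibody. Tbk1, the kinase of Irf3, was at -0.03 ± 0.09 under isotype and 0.08 ± 0.09 under anti-TNF. Of the 17 partner and co-regulator genes 0 were called by edgeR, DESeq2 or limma voom. Averaged over antibody, 1 of the 17 had an unadjusted p under 0.05 in edgeR, against 2.46% of genes. Spi1, which encodes PU.1, was at 0.12 ± 0.10 under isotype and -0.04 ± 0.10 under anti-TNF.

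Most listed targets of Irf1 and GAS had lower estimates in null/null under both antibodies, whereas for targets of ISGF3 and Irf7 the direction of most estimates differed between the antibodies. The interaction did not pass the test for any gene of either list. Of the 25 listed IRF1 and GAS targets, 22 had a lower estimate under isotype (median -0.25) and 24 under anti-TNF (median -0.68), against 49.3% of all tested genes in each. edgeR called 0 of them, with 2 and 13 at an unadjusted p under 0.05, against 1.8% and 1.98% of all tested genes. The listed genes share their libraries, so 13 of 25 is not a count of independent results. DESeq2 called 0 under isotype and 1, the chemokine gene Cxcl9, under anti-TNF, and limma voom called 0 in both. Without the 2 libraries that stand apart, 22 and 23 were lower (49.3% and 48.6% of all tested genes), with medians of -0.25 and -0.27. Gbp2, a GTPase of cell-autonomous defence, was at 76.5, 133 and 110 CPM in wt/null isotype and 30.8, 42.6 and 73.7 CPM in null/null isotype. These did not overlap, by a narrow gap, a pattern found in 3.65% of tested genes. Its estimate under isotype was -1.12 ± 0.66 (unadjusted p = 0.123 in edgeR, not called). Psmb9, an immunoproteasome subunit, was at -0.25 ± 0.33 under isotype and -0.72 ± 0.33 under anti-TNF. Tapbp and Tap1, which act in loading peptides on MHC class I, and Psmb8, another immunoproteasome subunit, were the most abundant of the list. Tapbp, Psmb8 and Tap1 were at -0.25 ± 0.13, -0.47 ± 0.22 and -0.86 ± 0.36 under anti-TNF and at -0.03 ± 0.13, -0.11 ± 0.22 and -0.30 ± 0.36 under isotype.

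Of the 23 measured ISGF3 and Irf7 targets, 7 had a lower estimate in null/null under isotype (median 0.09) and 23 under anti-TNF (median -0.47). Over all tested genes 49.3% of the estimates were lower under each antibody. edgeR, DESeq2 and limma voom called 0 in either, with 0 and 1 at an unadjusted p under 0.05 in edgeR (1.8% and 1.98% of genes). Without the 2 libraries that stand apart the counts were again 7 and 23 (49.3% and 48.6% of all tested genes), with medians of 0.09 and -0.43. Parp14, Bst2 and Ifi204, the most abundant of the list, were at -0.02 ± 0.22, 0.17 ± 0.24 and -0.10 ± 0.33 under isotype and at -0.37 ± 0.22, -0.40 ± 0.24 and -0.48 ± 0.33 under anti-TNF. Isg15, a ubiquitin-like antiviral protein, was at 0.45 ± 0.43 and -0.65 ± 0.43. Irf7 itself was at 0.11 ± 0.54 and -0.63 ± 0.54. The 23 interaction estimates were all below 0 (median -0.56, and -0.52 without the 2 libraries), against 50.6% of all tested genes. Of the 23, 0 were called by edgeR, DESeq2 or limma voom. At an unadjusted p under 0.05 there were 0 in edgeR (1.51% of genes), 0 in DESeq2 and 2 in limma voom. The share of all genes at that level in DESeq2 and limma voom is not given here. These targets move together between libraries, so their count does not measure how well the pattern repeats.

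**Figure D4:**
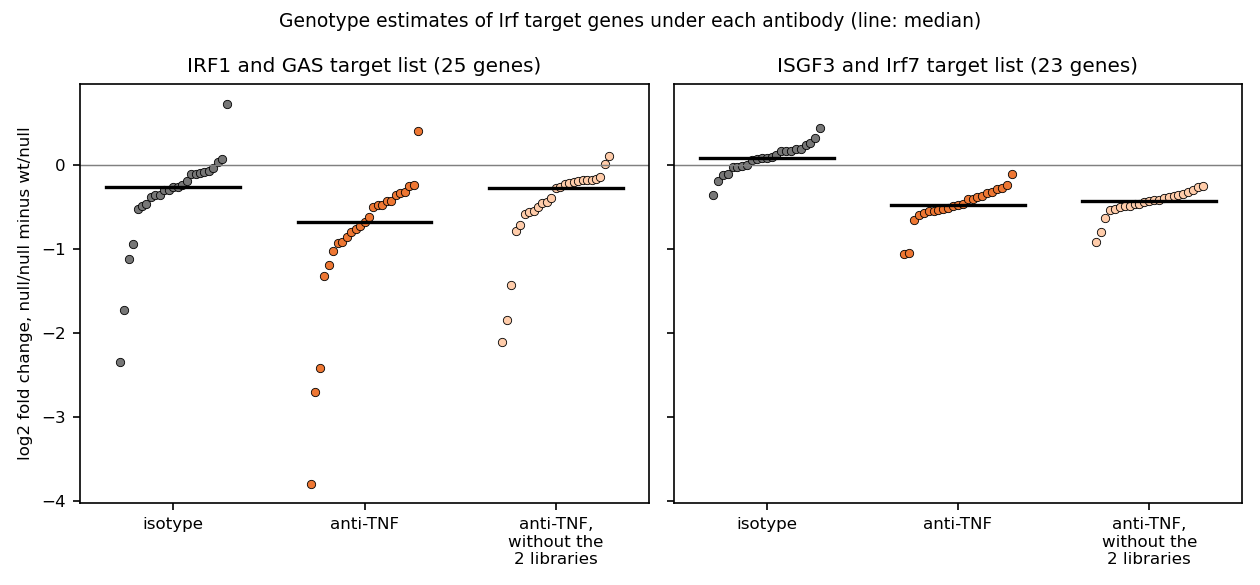
Log2 fold changes of null/null against wt/null (vertical axis) for the listed targets of Irf1 and GAS (25 genes) and of ISGF3 and Irf7 (23 genes) under isotype, under anti-TNF, and under anti-TNF without the 2 libraries that stand apart; each point is a gene and the line is the median. The ISGF3 and Irf7 list has a median of 0.09 under isotype and -0.47 under anti-TNF.

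The lists for Irf8 and PU.1 and for Irf4 and IL-4 were described in the same way. Of the 16 genes listed for Irf8 and PU.1, 13 had a lower estimate averaged over antibody (median -0.13, against 49.9% of all tested genes). Under isotype it was 8 and under anti-TNF 14, against 49.3% of genes in each. With all 12 libraries 0 were called by edgeR, DESeq2 or limma voom, and 0 had an unadjusted p under 0.05 in edgeR. Averaged over antibody, 9 of 16 were lower without the 2 libraries that stand apart (median -0.04, against 49.1% of genes), with 0 called by edgeR. The invariant chain gene Cd74 was at -0.05 ± 0.24 under isotype and -0.36 ± 0.24 under anti-TNF. Of the 14 genes listed for Irf4 and IL-4, 2 had a lower estimate averaged over antibody (median 0.15, against 49.9% of all tested genes). Under isotype it was 2, and under anti-TNF 6 (median 0.09), against 49.3% of genes in each. With all 12 libraries 0 were called by any of these tools. Averaged over antibody, 2 had an unadjusted p under 0.05 in edgeR, against 2.46% of genes. Without the 2 libraries 4 were lower averaged over antibody (median 0.20). Mrc1, the mannose receptor and the most abundant of that list, was at 0.08 ± 0.13 under isotype and 0.25 ± 0.13 under anti-TNF. The ligands of Ccr4, Ccl17 and Ccl22, were at 1.36 ± 0.55 and 0.87 ± 0.20 under isotype and at 1.48 ± 0.55 and 0.08 ± 0.20 under anti-TNF, named after their values were seen (edgeR, not called).

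Each Irf gene was also set against 9708 other genes by the Pearson correlation (r) of log2 CPM over the 12 libraries, as a description. The 5 genes most like Irf1 were H2-Q4 (r = 0.98), Fam26f (0.98), H2-M3 (0.97), Psmb9 (0.97) and Dnase1l3 (0.96), with r from 0.83 to 0.95 over the 10 libraries without those that stand apart. For Irf7 they were Xaf1, Stat2, Slfn1, Mx1 and Dhx58 (r from 0.96 to 0.98, and 0.91 to 0.96 over the 10). For Irf9 they were Dtx3l, Rtp4, Fcgr4, Phf11d and March5 (0.96 to 0.98, and 0.87 to 0.95). For Irf8 they were Fgd2, H2-Eb1, Arl5c, Ppfia4 and Tep1 (0.96 to 0.98, and 0.87 to 0.94). For Irf3 they were Camta2, Sbno2, Araf, Csf2rb and Mefv (0.90 to 0.95, and 0.92 to 0.95), and for Irf5 Zfp385a, Ebi3, Slc50a1, Tmub2 and Dcaf15 (0.90 to 0.92, and 0.87 to 0.94). For Irf4 they were Rhoh, Zeb2os, Ece1, Nrbf2 and Bcl2a1b (0.90 to 0.96, and 0.75 to 0.90). For Irf2 they were Ccnd2, Lbh, Nsmaf, Tmem67 and Cd274 (0.93 to 0.96), but over the 10 libraries r was 0.39 to 0.77, so this likeness rested on the libraries that stand apart.

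Among the members themselves the closest pair was Irf7 and Irf9 (r = 0.96, rho = 0.91 over 12 libraries, r = 0.89 over 10). Irf5 and Irf8 had r = 0.79 over 12 libraries and 0.87 over 10. Irf1 and Irf8 had r = 0.92 over 12 and 0.73 over 10. Irf1 and Irf2 had r = 0.88 over 12 but 0.21 over 10, and Irf4 and Irf7 0.41 over 12 but -0.54 over 10. Irf1 and Irf3 were at 0.01 and -0.11. These points share their libraries and the groups within them.

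**Figure D5:**
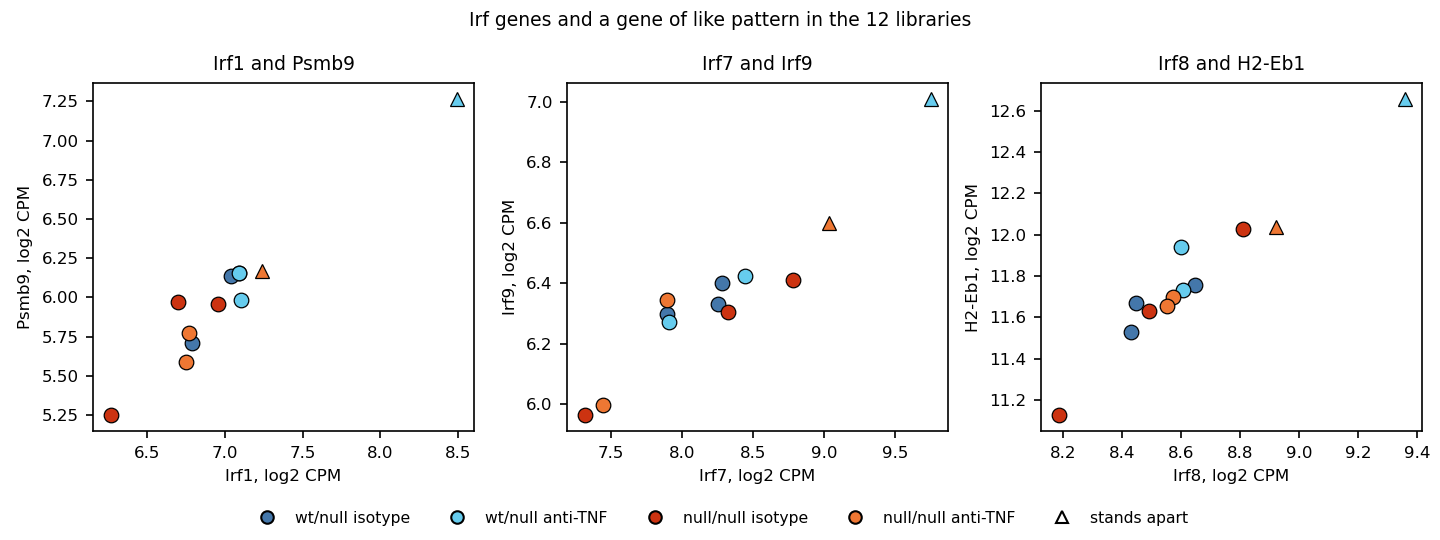
Log2 CPM of Irf1 against Psmb9, Irf7 against Irf9 and Irf8 against H2-Eb1 in the 12 libraries, coloured by group, with triangles for the 2 libraries that stand apart. Irf7 and Irf9 lie along 1 line (r = 0.89 without the triangles), with null/null isotype libraries at its low and its high part.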

How the data were processed

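Messenger RNA from 12 sorted myeloid samples was sequenced. The authors deposited raw counts per gene symbol; libraries were made with a stranded kit per the labels' protocols, and the submitters' processing notes name bcl2fastq 2.20, STAR, Bowtie and mm10 without roles. The sources used here do not give the counting tool, strand setting or annotation. Columns were matched to samples by title, and replicates were numbered in listed order, so numbers pair nothing.

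Genes were kept by filterByExpr (12981 genes, at least 99.97% of each library's counts), scaled by TMM and fitted as 4 group means on all 12 libraries with robust quasi-likelihood models in edgeR 4.0.16 (R 4.3.3). P-values were two-sided and adjusted by Benjamini-Hochberg over all tested genes, with a threshold of 0.05. Log2 CPM used a prior count of 2. Exact permutations were run for every tested gene. Transcript lengths and overlaps came from GENCODE M21 (GRCm38), upstream sequence from RefSeq. The fitting code was tested on simulated data.

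The members and gene lists were chosen with earlier results of these data known. Named genes were the members, list genes called or otherwise the most abundant with some chosen after their values were seen (Ifngr2, Tbk1, Spi1, Gbp2, Psmb9, Isg15, Cxcl9, Ccl17 and Ccl22), and the 5 genes most like each member (mean log2 CPM 2 or more). DESeq2 1.42.0, limma 3.58.1 voom, RLE scaling, other filters, the title number as a block and left-out libraries were alternatives. Some items are not reported here.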

Additional observations from a re-analysis of the deposited data

Results flagged for a closer look

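In wt/null, taking the 6 libraries of both antibodies together, wt/null anti-TNF replicate 2 lay far above the other 5 for 5 of the 8 Irf genes. It held 359.4 CPM of Irf1 (next highest 137.6 CPM), 144.1 CPM of Irf2 (97.86), 860.4 CPM of Irf7 (347.2), 655.9 CPM of Irf8 (400.6) and 128.8 CPM of Irf9 (85.73). In each the gap to the nearest library, divided by the range of the 6, was 0.812 to 0.89, above Dixon's critical value of 0.625. The check covered 16 sets of 6 libraries (8 genes in 2 genotypes), of which chance marks about 1 in 20, and the genes share their libraries. In null/null 0 of the 8 genes were marked. The groups of 3 were too small for this check.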

How the results depend on the processing

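Irf genes called stayed at 0 in all 102 recomputed counts. For antibody in DESeq2, Irf4 had no adjusted p and was counted as not called. Counts of all genes called moved under DESeq2 to 4 (genotype averaged), 2 (isotype), 2 (anti-TNF) and 14 (antibody). With only libraries titled 40 they were 0 (isotype), 0 (anti-TNF) and 1 (antibody), and with only the groups compared 0 (anti-TNF). The title number as a replicate block left 1, 1, 1, 0 and 0 genes called and Irf1 at -0.54 ± 0.26. Its meaning is not given in the sources used here, and deviations correlated at -0.04 to 0.48 over 6 pairs titled 46 (median 0.21), so it was not taken as pairing. Among the members 46 recomputed estimates and 5 permutation differences changed sign against 770 and 43 that did not, and the cause was not tested. Under voom these were Irf5 (0.0044, genotype), Irf3 (-0.0073, antibody) and Irf7 (-0.026, antibody). With libraries titled 40 these were Irf4 (-0.069, genotype), Irf2, Irf5 and Irf8 under isotype (0.021, -0.10 and -0.20), and the interactions of Irf3 (0.041) and Irf5 (0.0053). Without the 2 libraries that stand apart these were Irf5 (0.0074, genotype), Irf4 (0.054, anti-TNF) and, for antibody, Irf2 (-0.037), Irf3 (-0.016), Irf7 (-0.26) and Irf9 (-0.026), and in exact permutation Irf5 (0.0070, genotype) and, for antibody, Irf2 (-0.037), Irf3 (-0.019), Irf7 (-0.22) and Irf9 (-0.026). Leaving out each library in turn also turned signs. For genotype averaged over antibody, the estimates ran for Irf2 from -0.16 to 0.026, Irf4 from -0.024 to 0.26, Irf7 from -0.56 to 0.098 and Irf8 from -0.19 to 0.048. For genotype under isotype they ran for Irf2 from -0.059 to 0.016, Irf5 from -0.073 to 0.092, Irf7 from -0.25 to 0.41, Irf8 from -0.17 to 0.14 and Irf9 from -0.20 to 0.0069. For genotype under anti-TNF they ran for Irf2 from -0.32 to 0.060, Irf4 from -0.35 to 0.22, Irf7 from -1.23 to 0.087 and Irf8 from -0.34 to 0.089. For the interaction they ran for Irf1 from -0.71 to 0.15, Irf2 from -0.31 to 0.067, Irf3 from -0.11 to 0.048, Irf8 from -0.35 to 0.084 and Irf9 from -0.32 to 0.090. For antibody they ran for Irf3 from -0.015 to 0.064. The adjusted p of Irf1 for genotype ranged from 0.936 to 1.00 over the alternatives. Leaving out the 2 libraries was chosen after seeing the data, and it moved the lower estimates for antibody from 2 to 11 of 18 receptor and JAK-STAT genes, 2 to 20 of 25 GAS targets and 2 to 22 of 23 ISGF3 targets. Over all tested genes 48.4% were lower with all libraries and 49% without the 2. With 3 libraries per group and adjustment over all tested genes, a member that was not called may still differ by an amount within its interval.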
